A study of Mus musculus with 33 samples.

Results

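Spleen cells stimulated with CpG oligodeoxynucleotides (ODN) for 4 h were compared with spleen cells stimulated for 2 h, to find which genes rose, held or declined in the early phase of culture. The 8 arrays were chosen by their titles alone, 4 for the 4 h cultures and 4 for the 2 h cultures, out of 33 arrays in the series. Both groups came from spleens of female BALB/c mice aged 2 months and were cultured with 1 uM of an equimolar mixture of the CpG ODN 1555 and 1466. As controls for time in culture, the same 4 h to 2 h comparison was made with the control ODN 1612 and 1471, also at 1 uM and lacking CpG motifs, and with medium alone, each with 4 arrays per time. The cells were whole, unsorted spleen suspensions, so each value is an average over all cell types in the culture, and the labels do not say whether animals were pooled. RNA from the cultures was labelled with Cy5 and hybridised beside Cy3-labelled Universal Mouse Reference RNA, a commercial pool of mouse RNA, and no dye was swapped.

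Unmethylated CpG motifs are a mark of bacterial DNA that Toll-like receptor 9 (TLR9) binds in the endosomes of B cells, dendritic cells and, in mice, macrophages. The receptor signals through the adaptor MyD88 to NF-kB and MAP kinases, which switch on inflammatory cytokine genes directly, and to interferon regulatory factors. Secreted interferons and cytokines then act on the same and on neighbouring cells, so that interferon-stimulated genes and feedback inhibitors are usually transcribed later than the first cytokine genes. In the spleen, macrophages of the red pulp and marginal zone also take up ODN.

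The deposited values are log ratios of spleen cell RNA over reference RNA, taken here as log2, and each array was centred on its median, so that 0 stands for the array's typical probe. Probes with a value numbered 10621 to 10973 on the 4 h arrays and 9879 to 11129 on the 2 h arrays, and no spot intensities were used here, so depth is otherwise unknown. Array-to-array correlations over probes were 0.784 to 0.928 among the 4 h arrays, 0.803 to 0.916 among the 2 h arrays and 0.711 to 0.908 between the times. Over the 8 arrays the median ratio of 17 B cell markers was 2.69 and that of 13 T cell markers was 1.15, against -0.35 for 21 markers of non-splenic tissues of the reference. The experiment identifiers in the titles run together within the 4 h group and, apart from array 1, within the 2 h group, and whether the groups were hybridised in separate runs is not given in the sources used here.

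Between 2 h and 4 h of CpG ODN culture, transcripts that rose included Ifit1 and other interferon-stimulated genes, Il12b, Il6 and Batf, and transcripts that fell included Vcam1, Axl and Hfe. Of 9625 genes tested, 93 (0.966%) passed an adjusted p below 0.05 in the limma fit described under the processing, and these are the genes said here to have risen, fallen or changed. The 63 rises (0.655%) had a median log2 difference of 1.13 and spanned 0.62 to 2.39, and 40 of them were at least 1, a doubling. The 30 falls (0.312%) had a median of -0.98 and spanned -0.71 to -2.01, and 14 of them were -1 or lower. For 62 of the 63 rises every 4 h array lay above every 2 h array, and for 27 of the 30 falls every 4 h array lay below. Over all tested genes these shares were 4.87% and 3.77%, and since the calls were made on the same arrays, nothing is read from the contrast. Without adjustment, 1037 genes (10.8%) had a p below 0.05.

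Most genes held at a limit of 2-fold. For 7406 genes (76.9%) the 95% interval of the difference stayed within a doubling or a halving. A gene that meets this definition is called held here, and 2127 genes were neither called nor held. Snx11, a sorting nexin, was both called and held, with a rise of 0.62. The number of held genes depended on the limit. With a limit of 1.5-fold in place of 2-fold, 2198 genes were held, so most tested genes did not hold there. The number of calls depended on single arrays. It was 55 without 4 h array 1 and 23 without 4 h array 4, and 35, 46 and 33 without 2 h array 1, 3 and 4. It was 13 when the spread was estimated from these 8 arrays alone and not from all 33.

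Genes also differed between 4 h and 2 h in the cultures without CpG motifs, where time and a possible array run cannot be told apart either. With the control ODN, 121 of 9303 genes (1.3%) passed, 65 higher (0.699%) and 56 lower (0.602%) at 4 h. In medium alone 151 of 9560 (1.58%) passed, 108 higher (1.13%) and 43 lower (0.45%). These counts ranged over 48 to 199 and 44 to 216 with 1 array left out. Of the CpG ODN calls, 48 were also called with the control ODN in the same direction and 40 in medium, and none was called in the opposite direction. These shared calls are 51.6% of the CpG ODN calls and 39.7% of the control ODN calls, and 43.0% of the CpG ODN calls and 26.5% of the medium calls. Across genes, the CpG ODN difference correlated with the control ODN difference at r = 0.562 (9260 genes) and with the medium difference at r = 0.420 (9517 genes), a description over genes that are not independent replicates.

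The calls fell into 3 sets by this comparison. In the first, 26 rises and 11 falls were called in all 3 kinds of culture. In the second, 30 rises and 12 falls of the CpG ODN cultures were called in neither control. The remaining 14 were called in 1 control. The 30 rises of the second set had median differences of 1.04 with CpG ODN, 0.19 with the control ODN and 0.28 in medium, while the 26 rises of the first set had 1.21, 1.20 and 1.26. These medians follow from how the sets were formed and test nothing. The direct test of a difference between the changes is given further on.

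**Figure D1:**
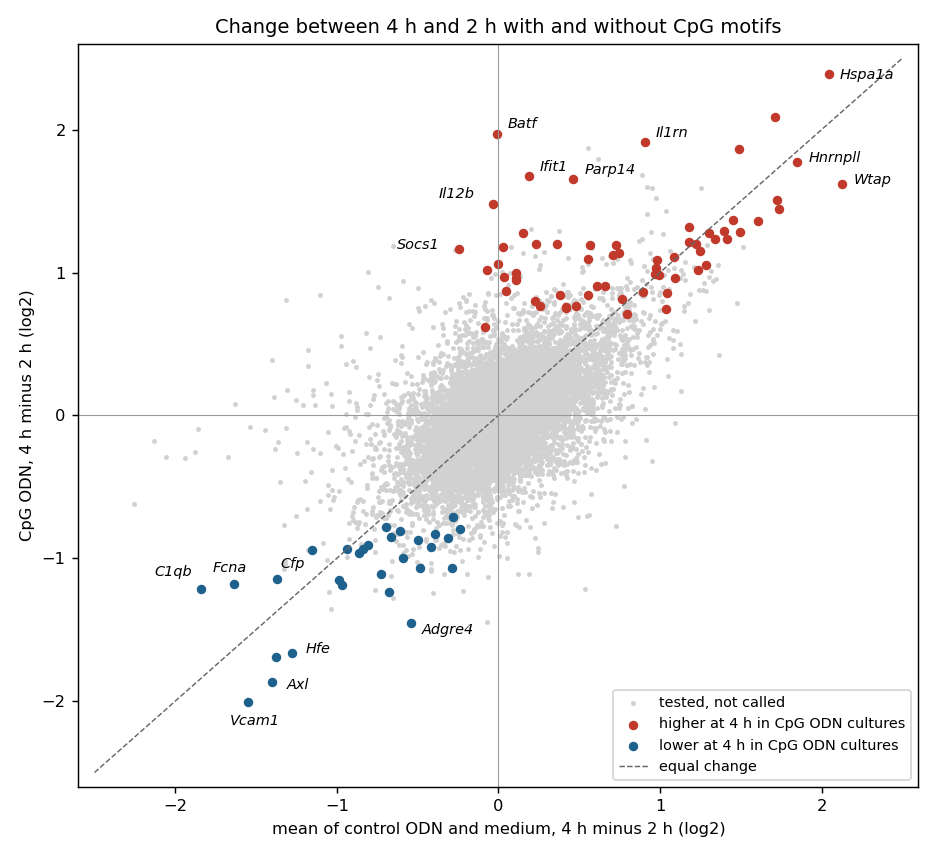
Log2 difference between 4 h and 2 h for each gene, in CpG ODN cultures (vertical axis) against the mean of the control ODN and medium cultures (horizontal axis); red points are genes called higher and blue points genes called lower at 4 h with CpG ODN, grey points were not called, and the dashed line marks equal change. Batf, Ifit1 and Il12b lie near 0 on the horizontal axis, while Hspa1a, Wtap, Vcam1 and Axl lie along the line.

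Interferon-stimulated genes, which encode antiviral and intracellular defence proteins, were the list with the highest median difference among the 20 functional lists. Of its 53 tested members 7 rose and 0 fell, while 0.655% of all tested genes rose and 0.312% fell. Its median difference was 0.34 with CpG ODN, against 0.00 for all tested genes. The same list had medians of -0.08 with the control ODN and -0.0037 in medium. Over its 44 members measured on all 8 arrays, the mean log2 ratio per array was 1.05 to 1.20 at 4 h and 0.67 to 0.79 at 2 h, without overlap. Held members numbered 29 (54.7%), against 76.9% of all tested genes.

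Ifit1, an interferon-induced tetratricopeptide repeat protein that binds viral RNA, had log2 ratios of 1.40, 1.41, 1.13 and 1.07 on the 4 h arrays, against -0.64, -0.53, -0.17 and -0.35 on the 2 h arrays. All 4 h arrays lay above 0 and all 2 h arrays below it. The difference was 1.67 ± 0.20 (SE, log2, n = 4 against 4, adjusted p = 6.63e-06). The same interval changed Ifit1 by -0.02 ± 0.21 with the control ODN and by 0.40 ± 0.20 in medium, neither of which passed the test.

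Parp14, an interferon-inducible ADP-ribosyltransferase, had log2 ratios of 2.48, 2.11, 2.78 and 2.87 at 4 h, against 1.21, 0.92, 0.71 and 0.78 at 2 h. The groups did not overlap, and the difference was 1.65 ± 0.24 (adjusted p = 1.55e-04). Trim30a, a tripartite motif protein induced by interferon, had 1.70, 1.62, 2.15 and 2.13 at 4 h and 0.88, 0.53, 0.36 and 1.12 at 2 h, again without overlap (1.18 ± 0.23, adjusted p = 0.00803). Mx2, an antiviral GTPase, was measured on 3 arrays per time, at 2.15, 1.97 and 2.09 at 4 h and at 0.85, 1.17 and 0.62 at 2 h (1.19 ± 0.25, adjusted p = 0.0170). Mx2 also had differences of 0.66 with the control ODN and 0.79 in medium, below the threshold in both.

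The other 3 members that rose were GTPases of interferon-induced defence, Ifi47 by 1.06 ± 0.22, Gbp7 by 0.97 ± 0.22 and Gbp2 by 0.95 ± 0.22. Their 4 h arrays all lay above their 2 h arrays. Their differences in the control ODN and medium cultures lay between -0.20 and 0.23. Ifit3, a partner of Ifit1 in the same family, had log2 ratios with a mean of 0.75 ± 0.32 at 4 h and 0.33 ± 0.12 at 2 h (SD, n = 4 each), and its difference of 0.43 was held. Isg15, a ubiquitin-like modifier, differed by 0.86 ± 0.26 and did not pass (adjusted p = 0.113). Irf1, a transcription factor of the interferon response, differed by -0.12 ± 0.25 with CpG ODN and was held. With the control ODN Irf1 fell by 1.18, and the difference between these changes did not pass the direct test given further on. Ifit1 and Parp14 stayed called with each of the 8 arrays left out and in the other 12 settings, whereas Mx2 stayed called with 4 of the 8 arrays left out, Gbp2 with 3 and Gbp7 with 2.

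The promoters of the 63 genes that rose were searched for GAAA, NN and GAAA in direct succession (N is any base), the core of the interferon-stimulated response element, on both strands in the 250 bases before to 50 bases after each annotated start (RefSeq, GRCm38.p6). Windows were at hand for 50 of the 63 rises and 6 of these (12.0%) held the motif, namely Cxcl10, Gbp2, Gbp7, Ifit1, Socs1 and Trim30a. Gbp2, Gbp7, Ifit1 and Trim30a are on the interferon list, where 4 of the 5 rises with a window held it. Of the 30 falls, 24 had a window and 2 (8.33%) held it. The share was 3.44% of all 32851 windows in the table, 3.74% of the 7682 tested genes with a window, and 48.8% of the 43 members of the interferon list with a window. At these small counts nothing is read from the shares of rises and falls. A match describes letters only and is not evidence of binding. Of the windows below, shown because these genes rose at 4 h, matches are in capitals in either orientation, and those of Ifit1 start at -104 and -85 from the annotated start, that of Gbp2 at -59, that of Cxcl10 at -213 and those of Socs1, which overlap, at -83 and -77.
Ifit1 (chr19:34640639-34640938, plus strand): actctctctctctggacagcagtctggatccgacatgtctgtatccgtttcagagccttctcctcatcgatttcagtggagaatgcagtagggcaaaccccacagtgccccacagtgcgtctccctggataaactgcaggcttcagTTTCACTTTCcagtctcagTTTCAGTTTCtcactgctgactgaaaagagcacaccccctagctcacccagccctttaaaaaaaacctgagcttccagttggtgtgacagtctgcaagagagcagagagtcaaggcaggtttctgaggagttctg
Gbp2 (chr3:142620413-142620712, plus strand): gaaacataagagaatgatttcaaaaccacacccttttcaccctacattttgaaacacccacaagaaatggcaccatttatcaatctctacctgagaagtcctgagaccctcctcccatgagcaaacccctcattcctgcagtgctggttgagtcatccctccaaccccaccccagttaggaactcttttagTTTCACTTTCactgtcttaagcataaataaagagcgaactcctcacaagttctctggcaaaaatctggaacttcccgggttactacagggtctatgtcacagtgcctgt
Cxcl10 (chr5:92348840-92349139, minus strand): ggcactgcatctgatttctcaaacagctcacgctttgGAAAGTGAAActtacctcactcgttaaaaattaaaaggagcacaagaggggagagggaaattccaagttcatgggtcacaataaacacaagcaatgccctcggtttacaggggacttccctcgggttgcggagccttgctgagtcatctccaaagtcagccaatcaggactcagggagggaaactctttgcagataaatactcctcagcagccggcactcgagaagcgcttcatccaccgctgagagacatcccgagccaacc
Socs1 (chr16:10785487-10785786, minus strand): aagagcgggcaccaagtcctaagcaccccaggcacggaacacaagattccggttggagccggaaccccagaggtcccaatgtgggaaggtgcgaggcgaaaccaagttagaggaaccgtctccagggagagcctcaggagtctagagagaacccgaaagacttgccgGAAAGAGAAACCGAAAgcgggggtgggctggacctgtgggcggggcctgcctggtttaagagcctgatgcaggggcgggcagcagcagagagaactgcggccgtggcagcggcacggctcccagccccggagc

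Among genes of lymphocyte activation and costimulation, 3 of 43 tested members rose and 0 fell, while 0.655% of all tested genes rose and 0.312% fell. The median difference was 0.21 with CpG ODN, -0.17 with the control ODN and -0.02 in medium. Batf, an AP-1 family transcription factor needed for antibody class switching and T helper differentiation, had log2 ratios of 3.46, 2.88, 4.22 and 3.77 at 4 h, against 1.95, 1.40, 1.25 and 1.84 at 2 h. Every 4 h array exceeded every 2 h array. The difference was 1.97 ± 0.29 (n = 4 against 4, adjusted p = 1.80e-04), while Batf differed by -0.02 ± 0.31 with the control ODN and by 0.00 ± 0.29 in medium. Its call stood with each array left out and in the other 12 settings.

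Swap70, a signalling protein of activated B cells, had log2 ratios of 2.96, 2.46, 3.61 and 3.86 at 4 h, against 1.86, 1.94, 1.92 and 2.07 at 2 h. The 2 h arrays lay close together and the 4 h arrays were spread over more than 1 unit, all of them higher (1.28 ± 0.31, adjusted p = 0.0355). Its call stood with only 1 of the 8 arrays left out in turn. Pim2, a survival kinase, averaged 2.29 ± 0.42 at 4 h (SD, n = 4) and 1.10 ± 0.31 at 2 h (SD, n = 3), a rise of 1.20 ± 0.25 (adjusted p = 0.0125). Cd69, an early activation antigen of lymphocytes, ranged over 2.66 to 4.52 at 4 h and 2.61 to 3.78 at 2 h, and its difference of 0.39 ± 0.37 was neither called nor held. Nfatc1, a calcium-regulated transcription factor, was held at -0.05 on the probe used, although its other probe gave -0.55.

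Cytokine genes showed 3 rises and 0 falls among 32 tested members, against 0.655% and 0.312% of all tested genes. The median difference was 0.27 with CpG ODN, 0.10 with the control ODN and 0.11 in medium. Il12b, the subunit shared by interleukin 12 and interleukin 23, had log2 ratios of 3.02, 2.72, 3.06 and 3.34 at 4 h, against 1.99, 1.36, 1.30 and 1.55 at 2 h. The groups did not overlap, and Il12b rose by 1.48 ± 0.28 (adjusted p = 0.00789), against -0.02 with the control ODN and -0.04 in medium. Il6, a cytokine of the acute phase and of B cell differentiation, had 2.10, 1.65, 2.42 and 2.25 at 4 h and 1.31, 0.71, 1.21 and 1.32 at 2 h, a rise of 0.97 ± 0.20 (adjusted p = 0.0139).

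Il1rn, the antagonist of the interleukin 1 receptor, had log2 ratios of 3.83, 3.64 and 3.63 on the 3 arrays that measured it at 4 h, against 1.89, 2.06, 1.51 and 1.70 at 2 h. It rose by 1.91 ± 0.23 (adjusted p = 9.45e-06). Il1rn also rose without CpG motifs, by 0.94 ± 0.23 with the control ODN and by 0.87 ± 0.21 in medium. Its CpG ODN change exceeded the mean control change by 1.00 ± 0.27, which did not pass over all genes (adjusted p = 0.554). Il12b and Il1rn stayed called with each array left out, and Il6 with 6 of 8. Il10, an anti-inflammatory cytokine, was held at 0.18. Interferon gamma (Ifng) differed by 1.07 ± 0.28 and did not pass (adjusted p = 0.0543).

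The NF-kB motif GGG, NN and TTTCC in direct succession on either strand was held by 3 of the 50 rises with a window (6%), namely Il6, C3ar1 and Il1rn. Of the 24 falls with a window, 0 held it. The share was 1.84% of the 7682 tested genes with a window and 1.63% of all windows. At these small counts nothing is read from the contrast between rises and falls. The promoter of Il6 is shown because Il6 is a textbook NF-kB target, with the match, which starts at -44, in capitals.
Il6 (chr5:30012864-30013163, plus strand): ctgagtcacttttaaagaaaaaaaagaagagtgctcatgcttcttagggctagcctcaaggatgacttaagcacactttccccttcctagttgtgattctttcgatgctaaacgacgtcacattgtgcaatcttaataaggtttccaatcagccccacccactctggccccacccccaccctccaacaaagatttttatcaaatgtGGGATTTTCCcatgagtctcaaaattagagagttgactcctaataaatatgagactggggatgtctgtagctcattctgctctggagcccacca

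Chemokine genes showed 3 rises and 0 falls among 24 tested members, against 0.655% and 0.312% of all tested genes, and 18 of the 24 had a difference above 0, against 4813 of all 9625 genes. Ccl3, which draws monocytes and lymphocytes, had log2 ratios of 2.08, 1.77, 2.86 and 2.19 at 4 h, against 0.83, 1.15, 1.08 and 1.07 at 2 h. The groups did not overlap (1.19 ± 0.22, adjusted p = 0.00609), and the call stood with each array left out. Ccl3 was also higher on average at 4 h in the controls, though called in neither. It ranged over -0.34 to 0.14 at 4 h and -0.95 to -0.16 at 2 h with the control ODN. In medium it ranged over -0.26 to 0.50 at 4 h and -0.77 to -0.17 at 2 h. Cxcl10 and Cxcl11 are interferon-induced ligands of the chemokine receptor Cxcr3 of T cells. Cxcl10 had 2.13, 1.39, 1.11 and 1.33 at 4 h and 0.82, 0.09, 0.48 and 0.51 at 2 h, a rise of 1.02 ± 0.22 (adjusted p = 0.0229). Cxcl11 had 1.36, 0.56, 0.80 and 0.70 at 4 h and -0.14, 0.15, 0.23 and 0.13 at 2 h, a rise of 0.76 ± 0.18 (adjusted p = 0.0317). For both, 4 h array 1 was the highest, and the calls stood with 3 of 8 arrays left out for Cxcl10 and 2 of 8 for Cxcl11. Ccl2, a monocyte attractant, was held, with a difference of 0.00 and a 95% interval of -0.55 to 0.55.

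In the signalling lists, 2 of 33 tested members of TLR and NF-kB signalling and 1 of 37 members of cytokine signalling rose, and 0 fell in either, while 0.655% of all tested genes rose. Socs1, the inhibitor of interferon and cytokine receptor signalling, had log2 ratios of 0.11, 0.53, 0.70 and 0.65 at 4 h, against -0.04, -1.27, -0.96 and -0.40 at 2 h. The lowest 4 h array, 0.11, stood just above the highest 2 h array, -0.04. The difference was 1.16 ± 0.27 (adjusted p = 0.0268), against -0.30 with the control ODN and -0.19 in medium, and the call stood with 2 of 8 arrays left out. Socs3, an inhibitor of interleukin 6 signalling, was held at 0.36.

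Ikbke, a kinase that activates interferon regulatory factors, averaged 1.74 ± 0.22 at 4 h and 0.74 ± 0.35 at 2 h (SD, n = 4 each). It rose by 1.00 ± 0.19 (adjusted p = 0.00809) with CpG ODN and differed by -0.09 with the control ODN and by 0.30 in medium. Nfkbiz, a nuclear IkB protein, had 2.85, 2.69, 3.46 and 3.02 at 4 h and 2.10, 2.06, 2.21 and 2.64 at 2 h, a rise of 0.75 ± 0.19 (adjusted p = 0.0446), against 0.39 with the control ODN and 0.44 in medium, with the call standing for 2 of 8 arrays left out. The receptor itself did not move beyond a doubling. Tlr9 ranged over 1.19 to 2.35 at 4 h and 0.97 to 2.08 at 2 h and was held with a difference of 0.00 (95% interval -0.74 to 0.74). Held members made up 23 of the 33 in the TLR and NF-kB list (69.7%), against 76.9% of all tested genes, among them Tnip1, an inhibitor of NF-kB activation, at 0.03.

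Several NF-kB targets did not pass the test of change between the times. Tnf, the cytokine tumour necrosis factor, had log2 ratios of 3.88, 3.79, 4.22 and 4.43 at 4 h, against 3.52, 3.22, 3.52 and 3.61 at 2 h. The 4 h arrays all lay above the 2 h arrays, yet the difference of 0.61 ± 0.23 did not pass (adjusted p = 0.275, 95% interval 0.13 to 1.09). With the control ODN, Tnf averaged 1.12 at 4 h and 1.19 at 2 h. Ptgs2, the inducible cyclooxygenase, overlapped between the times, with -0.64, -0.47, -1.52 and -1.67 at 4 h and -1.90, -0.99, -1.08 and -2.44 at 2 h. Its difference was 0.53 ± 0.31 (adjusted p = 0.598). Nfkbia, which encodes the NF-kB inhibitor and is a first target of NF-kB, averaged 2.27 ± 0.29 at 4 h and 1.90 ± 0.59 at 2 h and was held at 0.37. The growth regulator Myc differed by 0.58 ± 0.25 and did not pass (adjusted p = 0.368).

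**Figure D2:**
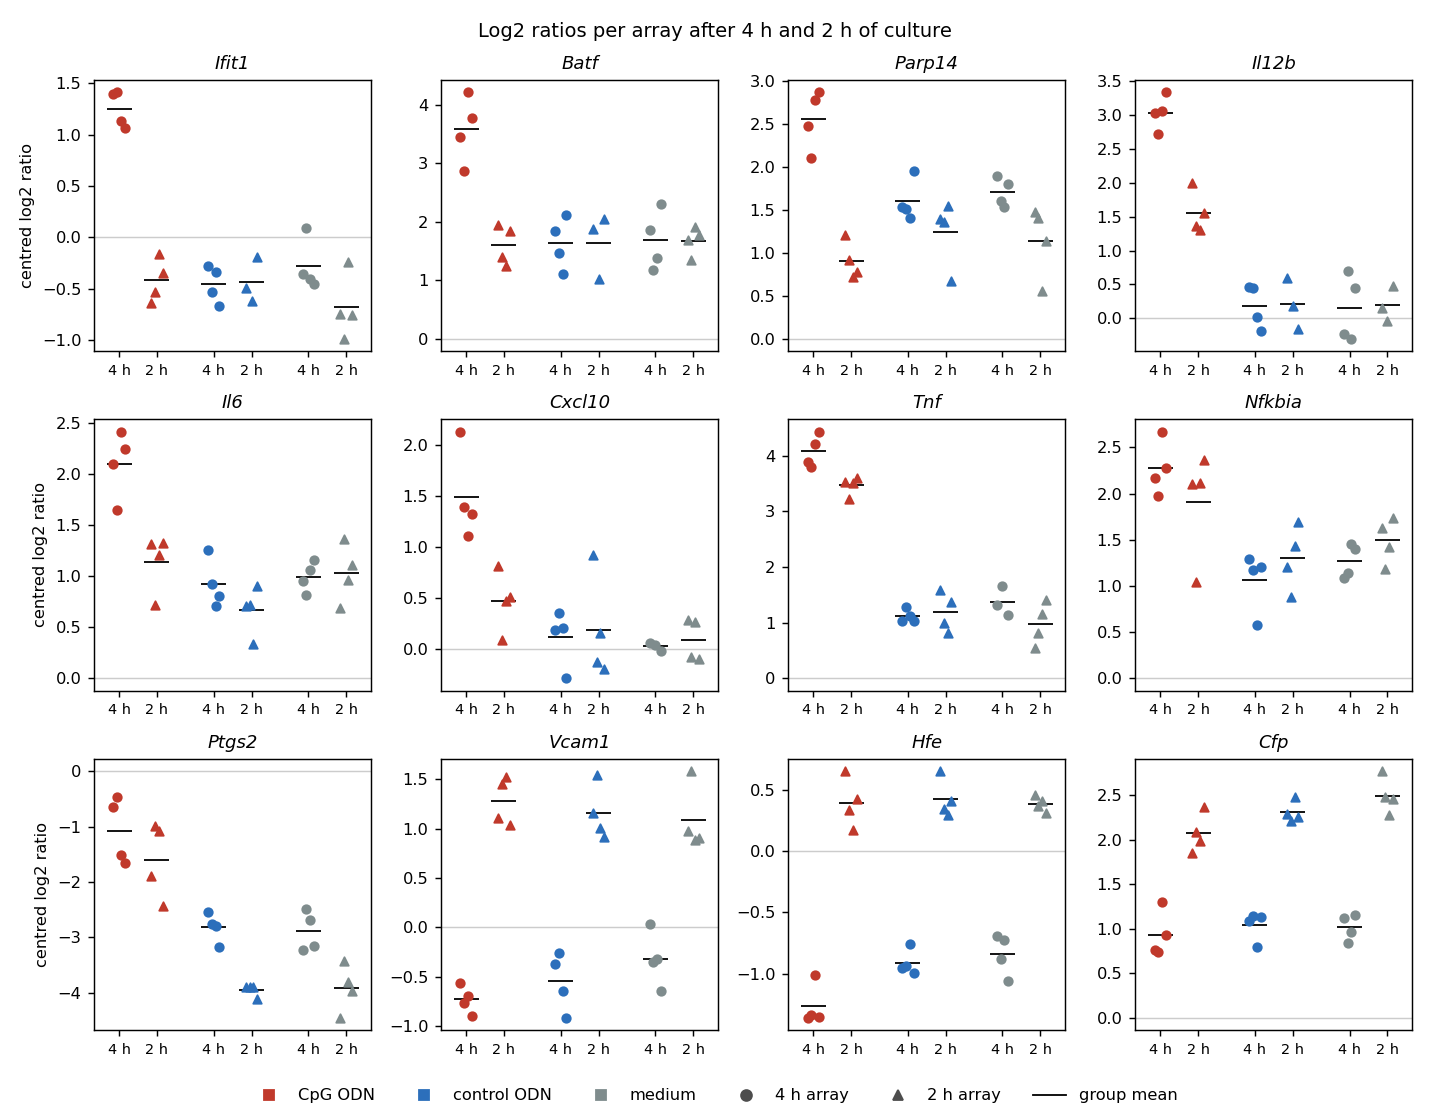
Centred log2 ratios of 12 genes on each array, with circles for 4 h and triangles for 2 h, red for CpG ODN, blue for control ODN and grey for medium, and black lines at group means; each panel has its own axis. Ifit1, Batf and Il12b have red 4 h points above all other points, Tnf and Nfkbia are high at both times with CpG ODN, and Vcam1, Hfe and Cfp fall in all 3 kinds of culture.

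Of 15 tested markers of monocytes and macrophages 3 fell (Vcam1, C1qb and Sirpa) and 0 rose, while 0.312% of all tested genes fell. With CpG ODN, 6 of the 15 were held (40%) and 2 lay above 0 (13.3%), against 76.9% and 50.0% of all tested genes. The median difference was -0.41 with CpG ODN, -0.63 with the control ODN and -0.37 in medium. Over the 9 markers measured on all 8 arrays the mean log2 ratio per array was 0.53 to 0.91 at 4 h and 0.89 to 1.41 at 2 h, with a slight overlap. In these mixed cultures, fewer macrophages in the RNA and less of these RNAs per macrophage cannot be told apart. Of the other marker lists, B cells (17 tested) and T cells (13 tested) had 0 calls and medians of 0.06 and 0.09.

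Vcam1, an adhesion receptor carried in the spleen by red pulp macrophages and stroma, had log2 ratios of -0.56, -0.76, -0.69 and -0.89 at 4 h, against 1.11, 1.45, 1.52 and 1.04 at 2 h. It fell by 2.01 ± 0.21 (adjusted p = 6.79e-07) with CpG ODN, by 1.70 with the control ODN and by 1.40 in medium. Axl, a receptor tyrosine kinase for apoptotic cell uptake, had -2.80, -2.92, -2.97 and -2.92 at 4 h and -1.13, -1.19, -0.78 and -1.05 at 2 h, a fall of 1.86 ± 0.24 (adjusted p = 3.43e-05). Hfe, a regulator of iron handling, had -1.36, -1.34, -1.01 and -1.35 at 4 h and 0.65, 0.33, 0.17 and 0.42 at 2 h, a fall of 1.66 ± 0.14 with the smallest adjusted p of the comparison, 6.82e-09. In these 3 genes the groups did not overlap. Antxr2, an anthrax toxin receptor and collagen-binding membrane protein, had -0.54, -0.44, -0.28 and -0.21 at 4 h and 1.93, 0.63, 0.79 and 1.95 at 2 h, a fall of 1.69 ± 0.26 (adjusted p = 0.000411) that was also called in both controls. Of these 4 genes only Vcam1 is on the macrophage marker list.

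Of the 20 tested genes of complement and macrophage effectors 3 fell (Vcam1, Cfp and C1qb) and 0 rose, while 0.312% of all tested genes fell. Vcam1 and C1qb are also on the macrophage marker list and are the same calls counted there. Of the 20, 10 were held (50%) and 8 lay above 0 (40%), against 76.9% and 50.0% of all tested genes. The median difference was -0.06. Cfp (properdin) averaged 0.93 ± 0.26 at 4 h and 2.07 ± 0.22 at 2 h (SD, n = 4 each), a fall of 1.14 ± 0.16 (adjusted p = 1.55e-04), and Fcna (ficolin A) 2.47 ± 0.28 and 3.65 ± 0.17, a fall of 1.18 ± 0.21 (adjusted p = 0.00333). C1qb, a chain of C1q, had 3.82, 3.24 and 3.73 at 4 h and 4.63 and 4.99 on the 2 arrays that measured it at 2 h, a fall of 1.21 ± 0.26 (adjusted p = 0.0241). The partner chains C1qa and C1qc had differences of -1.68 ± 0.73 and -1.08 ± 0.28 and did not pass (adjusted p = 0.379 and 0.0561). Sirpa, the inhibitory receptor for CD47, fell by 1.00 ± 0.19, and the selenium carrier Selenop by 1.11 ± 0.20. Of the falls in these paragraphs, Vcam1, Axl, Hfe, Cfp, Fcna and C1qb were called lower in both controls too, and Sirpa and Selenop with the control ODN.

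Not every macrophage gene declined. Cd68, a lysosomal protein of macrophages, was held at -0.32, the scavenger receptor Msr1 at -0.06 and haem oxygenase Hmox1 at -0.06. Adgre4, an adhesion receptor of the F4/80 family, had 1.16, 1.63, 1.58 and 1.45 at 4 h and 2.93, 2.67, 3.08 and 2.98 at 2 h. Its fall of 1.46 ± 0.33 (adjusted p = 0.0241) was accompanied by -0.47 with the control ODN and -0.61 in medium, neither called. Abca1, the cholesterol exporter, fell by 1.07 ± 0.23 (adjusted p = 0.0170), with -0.52 and -0.45 in the controls, and the lysosomal phospholipase-like gene Plbd1 by 1.23 ± 0.29. Plbd1 had 4.26, 3.60, 2.04 and 3.64 at 4 h and 4.51 to 4.81 at 2 h, and its call stood with 2 of 8 arrays left out. Whether Adgre4, Abca1 and Plbd1 fell further with CpG ODN than without was tested directly, and the differences from the mean control change, -0.92, -0.58 and -0.56, did not pass.

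Immediate early genes, which the handling of cells also induces, gave 2 falls and 0 rises among 34 tested members, while 0.312% of all tested genes fell. Klf4, a transcription factor of the Kruppel family, had -1.39, -1.14, -1.18 and -1.24 at 4 h and -0.27, -0.52, -0.28 and -0.12 at 2 h, a fall of 0.94 ± 0.19 (adjusted p = 0.00891). Jund, an AP-1 subunit, had 1.18, 1.01, 1.10 and 0.93 at 4 h and 1.72, 1.60, 2.27 and 2.36 at 2 h, a fall of 0.93 ± 0.21 (adjusted p = 0.0225). Both also fell with the control ODN, by 1.00 and 0.98, and Jund fell in medium by 0.90. Jun, by contrast, had -0.48, -0.31, 0.27 and -0.44 at 4 h, all above -1.11, -0.75, -0.68 and -0.67 at 2 h. Its difference of 0.56 did not pass (adjusted p = 0.257) and was held, which means within a doubling and not unchanged. The controls changed Jun by -0.07 and 0.01.

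Other rises were shared with the unstimulated cultures. Hspa1a, the inducible HSP70 chaperone, had log2 ratios of 2.67, 4.33 and 3.03 on the 3 arrays that measured it at 4 h, against 0.23, 0.78, 0.96 and 1.85 at 2 h. This was the largest rise of the comparison, 2.39 ± 0.57 (adjusted p = 0.0333), and its call stood with 3 of 8 arrays left out. With the control ODN it rose by 2.41, and in medium its difference of 1.69 did not pass. Of 8 further Hspa1a probes, 7 had differences between 0.96 and 2.66 and 1 had 0.17, whereas the probe of Hspa1b, a near-identical copy whose transcripts such probes may not separate, had -0.56 ± 0.63. Wtap, a subunit of the RNA methylation complex, averaged 1.67 ± 0.22 at 4 h and 0.05 ± 0.81 at 2 h (SD, n = 4 each). It rose by 1.62 ± 0.36 with CpG ODN, 2.00 with the control ODN and 2.26 in medium. The call stood with 4 of 8 arrays left out. Ero1a, an oxidase of protein folding induced by hypoxia, had -1.26, -1.58, -2.37 and -2.02 at 4 h and -3.52, -3.17, -2.96 and -3.35 at 2 h, a rise of 1.44 ± 0.27 (adjusted p = 0.00535), against 1.78 and 1.69 in the controls. Tgfbr3 had the largest rise among genes measured on all 8 arrays, 2.09 (adjusted p = 0.0195). Tgfbr3 and Diaph3 (1.32) were each also called in 1 control. Slc33a1 (1.51), Zfp108 (1.37), Bmp7 (1.29) and Gys2 (1.24) were called higher in all 3 kinds of culture. With 1 array left out in turn, the Tgfbr3 call stood 4 of 8 times.

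Several rises rest on 1 of 2 probes. Hnrnpll, an RNA-binding regulator of splicing, rose by 1.77 ± 0.35 with CpG ODN (adjusted p = 0.00816), 1.93 with the control ODN and 1.77 in medium, yet its second probe gave 0.14 with CpG ODN. The second probes of Crls1, Ccdc30 and Zw10 gave 0.10, 0.07 and 0.00, against 1.28, 1.11 and 1.09 for the probes used. Dtd2, called in neither control, rose by 0.84 on the probe used and its second probe gave -0.28. Among the 93 called genes only these 5 and Hspa1a had another measured probe. The remaining 87 calls rest on a single probe each.

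**Figure D3:**
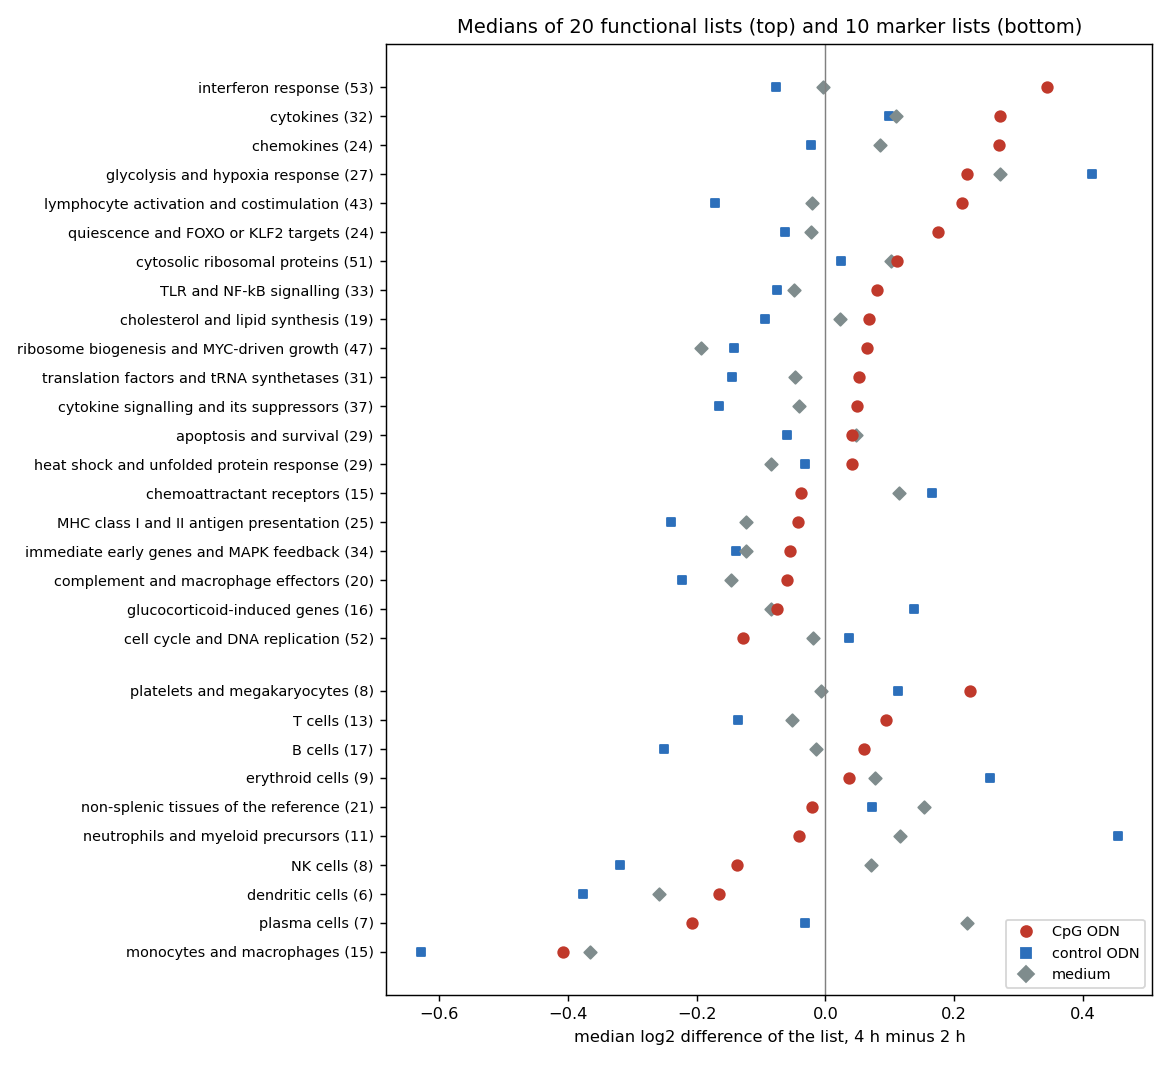
Median log2 difference between 4 h and 2 h for 20 functional and 10 cell type lists (number of genes tested in parentheses), with red circles for CpG ODN, blue squares for control ODN and grey diamonds for medium. The interferon list has the highest CpG ODN median of the functional lists, 0.34, and monocytes and macrophages lie at -0.41, -0.63 and -0.37.

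For several lists of growth and metabolism the count of calls was 0, which lists of their size cannot set apart from the 0.966% called over all tested genes. Cell cycle and DNA replication (52 tested), ribosome biogenesis and MYC-driven growth (47 tested), cytosolic ribosomal proteins (51 tested), apoptosis and survival (29 tested) and antigen presentation (25 tested) had 0 calls in either direction, with medians of -0.13, 0.06, 0.11, 0.04 and -0.04. Of the ribosomal proteins 46 of 51 were held (90.2%) and of the cell cycle genes 42 of 52 (80.8%), against 76.9% of all tested genes. The replication helicase subunit Mcm5 was held with a difference of 0.00, and Orc6, an origin recognition subunit and the cell cycle gene with the smallest p, differed by -0.67 ± 0.19 (adjusted p = 0.0962). H2-Ea, a class II histocompatibility chain, differed by 1.29 ± 0.35 and did not pass (adjusted p = 0.0718), with every 4 h array above every 2 h array. Glycolysis and hypoxia genes had medians of 0.22 with CpG ODN, 0.41 with the control ODN and 0.27 in medium.

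Whether a gene changed by more with CpG ODN than without was tested as the difference of the 4 h to 2 h changes. Against the mean of both controls, 2 of 9165 genes passed (0.0218%), both higher with CpG ODN, and 280 (3.06%) had an unadjusted p below 0.05. Ifit1 exceeded the mean control change by 1.48 ± 0.24 (adjusted p = 0.0110) and Batf by 1.98 ± 0.36 (adjusted p = 0.0245). Against the control ODN alone, 1 of 9260 genes passed (0.0108%), Ifit1 at 1.69 (adjusted p = 0.0204), and 182 (1.97%) had an unadjusted p below 0.05. Against medium alone, 0 of 9517 genes passed in limma (0%), the smallest adjusted p was 0.352, and 388 (4.08%) had an unadjusted p below 0.05. Each of these unadjusted shares lies below the share of 0.05 that the threshold admits without any difference, so no further genes are read from them. With array weights, 3 genes passed the adjusted threshold against medium.

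The other immune genes described above that were called with CpG ODN and not in the controls had positive but uncalled differences from the mean control change. These were 1.52 ± 0.35 for Il12b, 1.41 ± 0.33 for Socs1, 1.19 ± 0.29 for Parp14, 1.15 ± 0.28 for Trim30a, 1.12 ± 0.38 for Swap70, 1.08 ± 0.28 for Cxcl10, 0.89 ± 0.24 for Ikbke and 0.86 ± 0.25 for Il6. They were 1.06 ± 0.27 for Ifi47, 0.97 ± 0.30 for Pim2, 0.93 ± 0.26 for Gbp7, 0.84 ± 0.27 for Gbp2, 0.62 ± 0.27 for Ccl3, 0.51 ± 0.23 for Cxcl11, 0.47 ± 0.30 for Mx2 and 0.34 ± 0.23 for Nfkbiz. For these genes the direct test did not pass over all genes, so a larger change with CpG ODN than in the controls was not shown. Single arrays decided the counts of differences. The call against the control ODN was lost without CpG ODN 4 h array 1, CpG ODN 2 h array 1 or 2, control ODN 4 h array 2 or 4, or control ODN 2 h array 1 or 3. Against the mean of both controls, 0 genes passed without CpG ODN 4 h array 1 or CpG ODN 2 h array 2. There, 1 gene passed without CpG ODN 4 h array 3 or 4, CpG ODN 2 h array 3, control ODN 4 h array 2, control ODN 2 h array 1 or 3, or medium 4 h array 3. Both counts were 0 without the 4 arrays whose experiment identifiers lie apart, CpG ODN 2 h array 1, medium 4 h array 1 and control ODN 2 h arrays 1 and 2.

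The 8 h cultures place these values in the longer course, with 3 arrays per group. At 2, 4 and 8 h of CpG ODN, Ifit1 averaged -0.42, 1.25 and 4.03, Cxcl10 0.47, 1.49 and 4.54, Cxcl11 0.09, 0.86 and 5.14, Socs1 -0.67, 0.50 and 3.56, and Il6 1.14, 2.11 and 4.05. Ifit3, which was held between 2 h and 4 h, averaged 0.33, 0.75 and 4.03. For Batf the means were 1.61, 3.58 and 4.33. Ccl3 averaged 1.03, 2.23 and 1.90 and Tnf 3.47, 4.08 and 3.79, with their highest mean at 4 h. Vcam1 averaged 1.28, -0.73 and -2.37 and Axl -1.04, -2.90 and -3.23. No test was made of the step to 8 h, which shares the 4 h arrays.

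**Figure D4:**
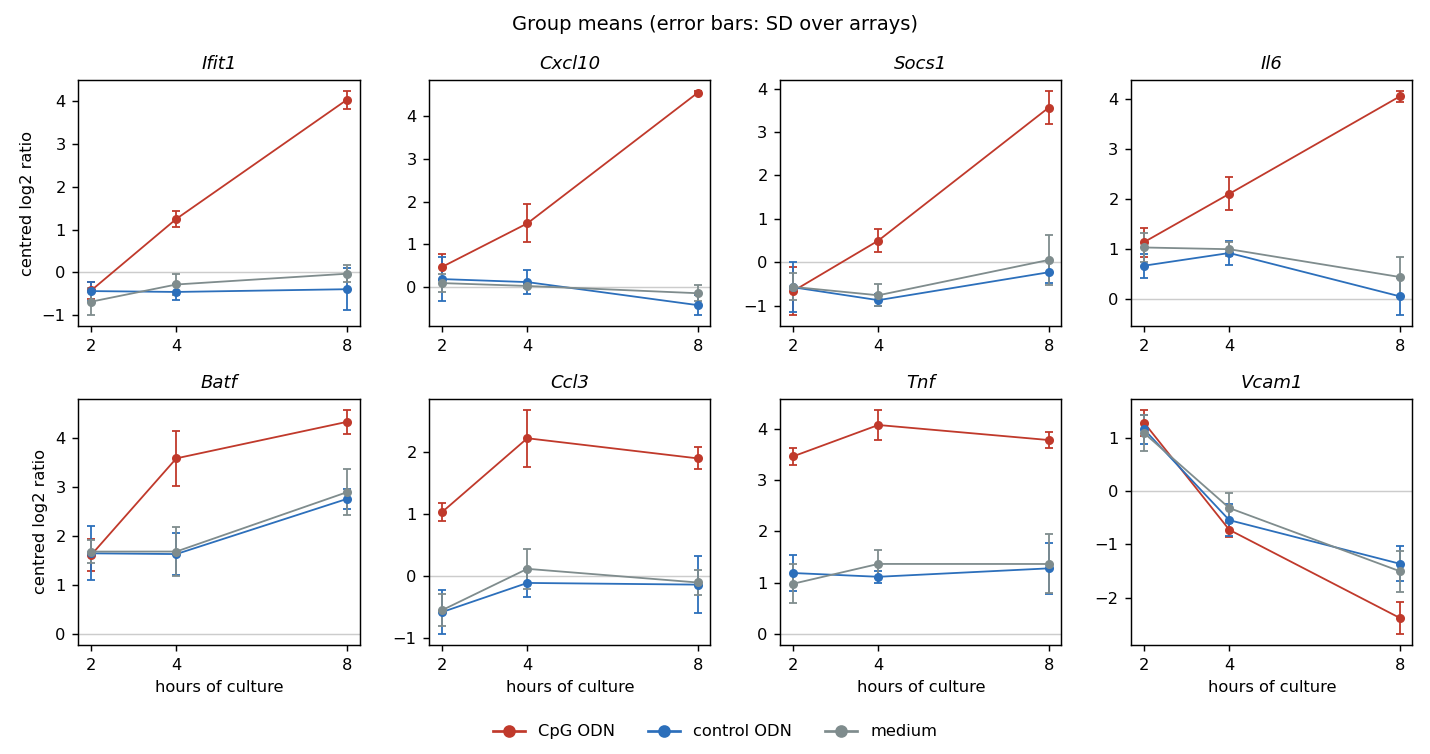
Mean centred log2 ratio of 8 genes at 2, 4 and 8 h of culture, with error bars for the SD over arrays (4 arrays at 2 h and 4 h, 3 at 8 h), in red for CpG ODN, blue for control ODN and grey for medium. With CpG ODN, Ifit1, Cxcl10, Socs1 and Il6 have their highest means at 8 h and Ccl3 and Tnf at 4 h, and Vcam1 declines in all 3 kinds of culture.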

How the data were processed

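Spleen cell cultures were measured on 33 spotted 2-colour arrays, and the authors deposited 1 log ratio per probe and array, Cy5 (culture) over Cy3 (reference) per the labels. The deposited log2 ratios are called so because of their range. The log base is not given in the sources used here, nor is how background and dye intensity were corrected before deposit. Since all arrays carry the dyes the same way round, a dye bias of a probe cancels in differences between groups. Each array was centred on its median here. Probes were named from the platform annotation: of 16720 probes, 14656 have 1 gene symbol, 6 have several and 2058 have none, and the last 2 kinds stayed out of the gene tests. A gene with several probes (511 genes) was read from its most often measured probe.

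For each gene limma 3.58.1 in R 4.3.3 estimated the means of the 9 groups with shared, moderated variance, and p-values were adjusted by Benjamini and Hochberg over all genes tested. Testing needed 2 measured arrays in every group of a comparison, and calls needed an adjusted p below 0.05. All p-values in the text come from this fit, errors beside differences are standard errors, and the median standard error was 0.254. Differences between the change with CpG ODN and the change in the controls were contrasts of the same fit. The fit was tested on simulated data.

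The comparison, the 20 functional and 10 marker lists and the rule for naming genes were chosen with earlier results of these data known. The rule took the 15 largest rises and 15 largest falls measured on all 8 arrays, genes called in a difference of changes, a fixed set of CpG response genes, and of each list up to 4 called members (2 for markers) or the member with the smallest p, and 1 held member. Ifi47, Gbp2, Gbp7, Isg15, Irf1, Ifng, C1qa, C1qc, Cd68, Msr1, Hmox1, Hspa1b, Ccdc30, Zw10, Dtd2 and Snx11 fall outside it and were named after their values were seen. Not every gene that the rule took is described above, among them the falls Rassf3 (-1.15), Trdmt1 (-1.07) and Frmd4b (-0.97). The submitters describe independent experiments, and p-values measure only the spread between these arrays. Alternatives were other normalizations, filters, probe rules, fits, array weights, repeat-number blocks and each array left out.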

Additional observations from a re-analysis of the deposited data

Results flagged for a closer look

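Dixon's criterion, which chance meets in about 1 in 20 groups, marked 1 array as apart in 6 of 174 groups of 4 arrays of named genes, where 8.7 would be marked at that rate. Alas2, a haem synthesis enzyme of red cell precursors, was at 3.32 on 4 h array 2, against 5.53 to 5.77 on the other 4 h arrays. Tnip1 was at 1.00 on the same array, against 1.49 to 1.56. Ccl2 was at 0.59 on 4 h array 3, against -0.54 to -0.40, and Hfe at -1.01 on that array, against -1.36 to -1.34. On 2 h array 4, C3ar1 was at -0.68, against -0.21 to -0.11 on the other 2 h arrays, and Sirpa at 0.47, against 0.72 to 0.74.

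The 4 h to 2 h change differed between kinds of culture for a pair of genes by the test of the difference itself. Ifit1 changed by 1.69 more with CpG ODN than with the control ODN and by 1.48 more than the mean of both controls, and Batf by 1.98 more than that mean. Against medium alone 0 genes passed, and Batf did not pass against the control ODN alone. Without the arrays with a distant experiment identifier, 0 genes passed in either comparison. All 4 CpG ODN arrays at 4 h lay above all 4 at 2 h for both genes, which describes the CpG ODN change and not its difference from the controls.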

How the results depend on the processing

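Depth is known only as probes with a value, and 4 arrays per group limit the precision: the median 95% interval reached 0.52 to either side. Of the 93 called genes, 20 stayed called with each CpG ODN array left out, 12 in every other setting tried for them, and 9 in both: Batf, Ifit1, Il12b, Il1rn, Parp14, Axl, Cadm1, Hfe and Vcam1. No called gene changed sign. The counts moved as follows, and the cause was not tested except that fewer arrays or genes enter some settings. The 93 calls (63 rises, 30 falls) became 143 (88, 55) with quantile normalization, 251 (157, 94) with array weights, 13 (8, 5) with the spread taken from the compared groups alone and 40 (25, 15) without the arrays with a distant experiment identifier. Leaving out 1 array gave 23 to 127 calls, 11 to 77 rises, 12 to 50 falls and 6420 to 6993 held genes. Held genes numbered 2198 at a 1.5-fold limit.

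Whether equal repeat numbers pair the CpG ODN arrays stayed unsettled. Their deviations correlated at -0.26, 0.45, -0.10 and 0.36 between 4 h and 2 h, and the main fit took the arrays as unpaired. A replicate block within treatment gave 51 calls (32 rises, 19 falls), and a block shared by all groups 124. The blocks gave 0 calls against the control ODN, and the block within treatment 0 against the mean of both controls and 91 for medium.

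The single call against the control ODN became 0 with genes measured on every compared array, where Ifit1 and Batf were not tested, 0 without the distant arrays and 5 with array weights, and was 0 to 2 with 1 array left out. The pair against the mean of both controls became 1 with quantile normalization, 1 with the spread from the compared groups, 0 with genes on every array, 0 without the distant arrays and 15 with array weights, and was 0 to 2 with 1 array left out. The 0 against medium became 3 with array weights and stayed 0 with any array left out. The control ODN comparison (121) gave 61 with the spread from its own groups, 223 with array weights and 48 to 199 with 1 array left out. The medium comparison (151) gave 4, 787 and 44 to 216 in the same settings, and 44 without the distant arrays.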
